A study of Mus musculus with 10 samples.

Results

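T cells take on helper, cytotoxic, follicular or memory programs under a small set of DNA-binding proteins, and 8 genes of this kind were followed here in melanomas grown in WT and Siah2-/- mice. They are *Tbx21*, *Eomes*, *Stat4* and *Runx3* of the Th1 and cytotoxic programs, *Gata3* of the Th2 program, *Rora* of the Th17 program and of innate lymphoid cells, and *Bcl6* and *Tcf7* of the follicular helper and memory programs. They were chosen by name as T cell lineage factors, and all 8 were among the 770 gene probes of the mouse PanCancer Immune panel of NanoString, an assay that counts color-coded probes hybridized to RNA without amplification. The probes cover 750 endogenous genes and 20 reference genes.

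The samples were 10 whole tumors of YUMMER1.7, a BRAF-mutant mouse melanoma cell line with a high mutation burden that was derived from the line YUMM1.7. The cells were injected into syngeneic male mice, with 5 tumors from WT and 5 from Siah2-/- (Siah2 KO) hosts, and the labels give a collection time of 11 days. By these labels Siah2, an E3 ubiquitin ligase, was deleted in the KO hosts and not in the injected tumor cells. The design text of the series differs from the sample labels, as it names Yumm1.5 cells, Rnf5-/- hosts and day 10, and the groups here follow the labels. The labels number the tumors WT2 to WT6 and KO1, KO2, KO3, KO5 and KO6, and name no batch or cartridge. *Siah2* was not among the probes and none of the 6 melanocyte markers listed was measured, so neither the genotype nor the tumor cell identity could be checked in these data. T cell transcripts were present in every tumor, with a summed signal of the 6 T cell receptor complex genes (*Cd3d*, *Cd3e*, *Cd3g*, *Cd247*, *Cd5* and *Cd6*) of 482 to 608 normalized counts in WT and 613 to 1171 in KO tumors.

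In outline, T-bet (the product of *Tbx21*) and Eomes are T-box factors that switch on interferon gamma and cytotoxic genes, and STAT4 carries the signal of the IL-12 receptor to the nucleus. Runx3 cooperates with T-bet and keeps *Cd4* silent in CD8+ T cells, and GATA3 drives the Th2 cytokines. ROR alpha acts in Th17 cells and innate lymphoid cells. Bcl6 is the repressor that defines follicular helper T cells, and TCF-1 (the product of *Tcf7*) is high in naive, memory and stem-like T cells and falls as they become terminal effectors. Most of these genes are not restricted to T cells: T-bet, Eomes, Runx3, STAT4, GATA3 and TCF-1 also act in NK cells, and *Bcl6* is expressed in B cells and macrophages.

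*Tbx21*, *Runx3* and *Bcl6* rose in KO tumors, each without overlap of the groups, by 1.91-, 1.74- and 1.41-fold. *Eomes*, *Gata3*, *Rora* and *Stat4* had means that were 1.24- to 1.44-fold higher in KO tumors but did not pass the test, and *Tcf7* had a mean 0.894-fold that of WT and did not pass either. Values are normalized counts, and the groups were compared on the log2(value + 1) scale, KO minus WT, by the moderated test of limma, p adjusted by Benjamini-Hochberg across the 770 probes. Of the 8 factors 3 were higher and 0 lower at an adjusted p under 0.05, where 31.3% of all probes were higher and 9.74% lower (41.0% in either direction). This balance depended on the scaling. With median scaling 2 factors were higher and 1 lower, beside 163 higher and 152 lower probes, and with quantile normalization 2 and 1, beside 153 and 181. The median log2 fold change of the 8 factors was 0.46, that of all probes 0.24. In whole-tumor RNA, a change in the number of cells of a type and a change in RNA per cell cannot be told apart.

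**Figure D1:**
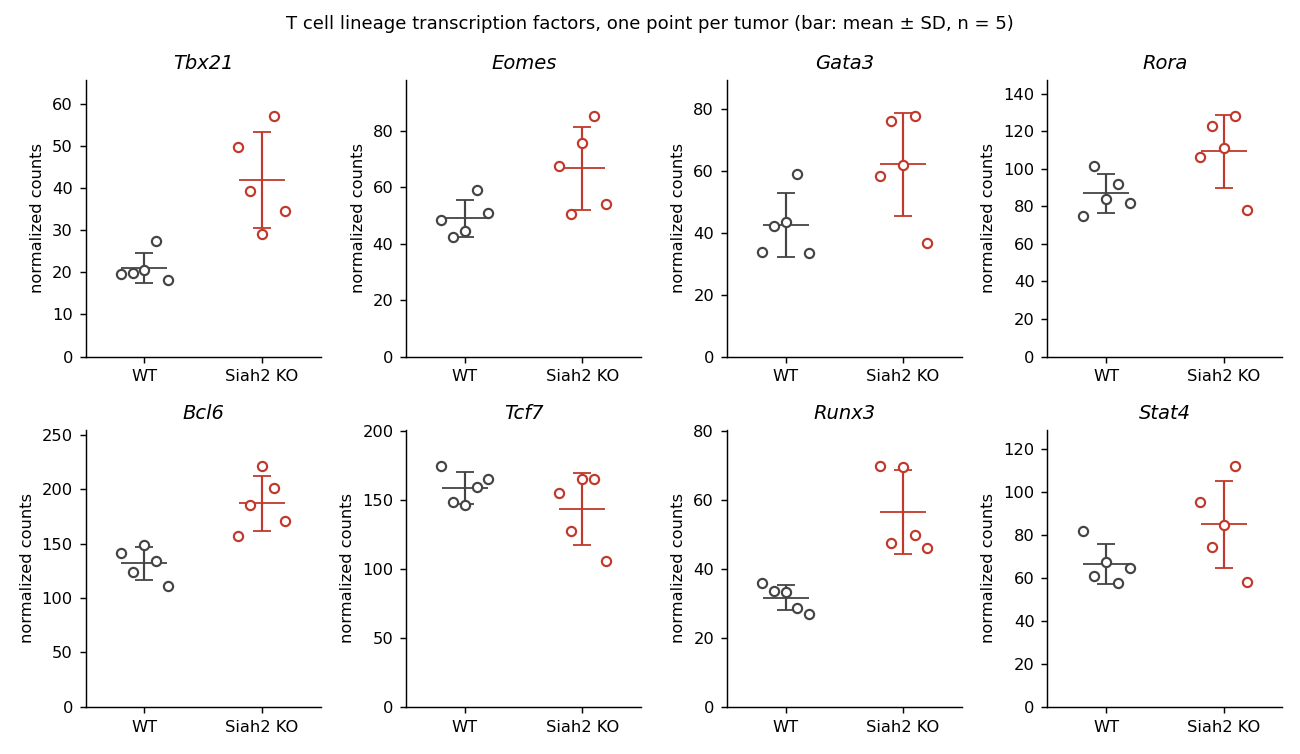
Normalized counts (linear axis from 0) of the 8 factors in each WT tumor (grey) and Siah2 KO tumor (red), with a horizontal bar at the mean and whiskers of 1 SD over 5 tumors. For *Tbx21*, *Runx3* and *Bcl6* every KO tumor lies above every WT tumor, whereas for the other 5 factors the groups overlap.

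*Tbx21* was the factor with the highest fold change. Its signal was 19.5, 19.9, 20.5, 27.4 and 18.2 normalized counts in WT2 to WT6, and 49.7, 39.3, 29.0, 57.2 and 34.6 in KO1, KO2, KO3, KO5 and KO6. The WT tumors lay close together apart from WT5, and the lowest KO tumor, KO3, lay only just above WT5. KO tumors averaged 42.0 ± 11.4 and WT tumors 21.1 ± 3.63 (mean ± SD of 5 tumors, as for all means here), and the log2 fold change was 0.93 (SE 0.19, 95% confidence interval 0.51 to 1.35, limma adjusted p = 0.0033). The two-sided exact permutation test over the 252 divisions of the tumors gave p = 0.00794, the smallest it can give. *Tbx21* also had the fewest counts of the 8 factors in WT tumors. Before multiplication by the reference gene factor of each tumor it stood at 19 to 22 counts above background in WT and at 23 to 45 in KO tumors, and the highest negative control probe of any tumor read 10.7.

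*Runx3* rose next. It read 35.8, 33.5, 33.4, 28.7 and 26.9 normalized counts in WT2 to WT6, and 69.7, 47.3, 69.4, 49.8 and 45.9 in KO1, KO2, KO3, KO5 and KO6. KO1 and KO3 stood above the other 3 KO tumors, and these in turn above the highest WT tumor. Before multiplication by the reference gene factor *Runx3* stood at 22 to 37 counts above background in WT and at 30 to 63 in KO tumors. The groups thus overlapped before that scaling. KO tumors averaged 56.4 ± 12.1 and WT tumors 31.7 ± 3.70, for a log2 fold change of 0.80 (SE 0.15, 95% confidence interval 0.46 to 1.13, limma adjusted p = 0.0023, exact permutation p = 0.00794). *Runx1*, the related factor of the same DNA-binding family, had a log2 fold change of 0.03 (limma adjusted p = 0.80).

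*Bcl6* gave the smallest of the called changes. It read 141, 124, 149, 134 and 111 normalized counts in WT2 to WT6, and 157, 185, 221, 201 and 171 in KO1, KO2, KO3, KO5 and KO6. The groups did not overlap, but KO1 lay only just above WT4. Before multiplication by the reference gene factor they did overlap, with *Bcl6* at 102 to 162 counts above background in WT and 116 to 175 in KO tumors. KO tumors averaged 187 ± 25.0 and WT tumors 132 ± 14.9, for a log2 fold change of 0.50 (SE 0.12, 95% confidence interval 0.23 to 0.76, limma adjusted p = 0.0077, exact permutation p = 0.00794). Over all probes, 24.5% had every KO tumor above every WT tumor. The *Bcl6* call depended on the scaling. When tumors were instead scaled so that their endogenous probes had equal medians, its log2 fold change was 0.23 (limma adjusted p = 0.13), whereas *Tbx21* and *Runx3* stayed at 0.68 and 0.54 (adjusted p = 0.013 and 0.023).

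The 250 bases before the start sites of these 3 genes are shown because they were the factors called higher, with searched motifs in capitals. They are RefSeq sequences of build GRCm38.p6, written 5′ to 3′ on the strand of the gene, and lie at chr11:97115332-97115581 (minus strand, *Tbx21*), chr4:135120395-135120644 (plus strand, *Runx3*) and chr16:23981284-23981533 (minus strand, *Bcl6*).
Tbx21: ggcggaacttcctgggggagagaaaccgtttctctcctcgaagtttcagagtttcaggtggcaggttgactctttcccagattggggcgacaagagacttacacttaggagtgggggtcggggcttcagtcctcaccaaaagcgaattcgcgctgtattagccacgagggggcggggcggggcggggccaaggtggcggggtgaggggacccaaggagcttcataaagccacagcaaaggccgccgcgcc
Runx3: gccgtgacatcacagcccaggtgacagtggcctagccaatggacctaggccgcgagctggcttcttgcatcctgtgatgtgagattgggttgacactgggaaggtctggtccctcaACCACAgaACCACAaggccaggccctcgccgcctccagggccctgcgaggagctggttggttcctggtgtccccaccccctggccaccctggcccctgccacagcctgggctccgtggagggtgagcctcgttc
Bcl6: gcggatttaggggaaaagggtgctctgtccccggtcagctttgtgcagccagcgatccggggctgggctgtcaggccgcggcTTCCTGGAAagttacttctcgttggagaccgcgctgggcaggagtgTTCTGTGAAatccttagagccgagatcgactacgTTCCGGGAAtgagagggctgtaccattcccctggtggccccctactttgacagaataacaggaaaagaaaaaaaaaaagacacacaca
The search covered both strands for the STAT site TTCNNNGAA, the RUNX site TGTGGT, the T-box site AGGTGTGA and the GATA site AGATAA, which do not overlap in the windows shown. The *Bcl6* window holds 3 matches to the STAT site, starting 168, 122 and 88 bases before the start site, and the window of its other start holds 1. The *Runx3* window holds 2 matches to the RUNX site on the reverse strand (ACCACA), 134 and 126 bases before the start site, and the window of its other start holds none. The *Tbx21* window holds no match to the 4 motifs. Of 32851 windows of the same length over all genes, 7.02% hold the STAT site, 14.0% the RUNX site, 1.12% the T-box site and 9.99% the GATA site. Over the 12 windows of the 8 factors, STAT sites were found only in the 2 windows of *Bcl6* and RUNX sites only in 1 window of *Runx3*, and the T-box and GATA sites in 0.

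*Eomes*, the second T-box factor, read 48.2, 42.3, 44.4, 59.1 and 51.0 normalized counts in WT2 to WT6, and 67.5, 50.5, 75.8, 85.3 and 54.1 in KO1, KO2, KO3, KO5 and KO6. KO2 and KO6 lay among the WT tumors, and the other 3 KO tumors lay above all of them. The log2 fold change was 0.42 (SE 0.16, 95% confidence interval 0.06 to 0.77), with a limma adjusted p = 0.058 and an exact permutation p = 0.048. *Stat4* behaved alike in its overlap, at 57.8 to 81.8 in WT (median 64.5) and 58.3 to 112 in KO tumors (median 84.6). Its log2 fold change was 0.33 (SE 0.17, 95% confidence interval -0.06 to 0.71, limma adjusted p = 0.16). In KO6 *Stat4* was below the WT median.

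*Gata3* had a larger mean difference than *Eomes* but a wider spread. It read 33.9, 42.3, 43.5, 59.1 and 33.6 normalized counts in WT2 to WT6, and 58.6, 76.1, 61.9, 77.9 and 36.6 in KO1, KO2, KO3, KO5 and KO6. KO6 lay among the lower WT tumors and WT5 above KO1. The log2 fold change was 0.52 (SE 0.22, 95% confidence interval 0.02 to 1.02, limma adjusted p = 0.088, exact permutation p = 0.071). *Rora* read 75.1 to 102 in WT (median 83.8) and 77.8 to 128 in KO tumors (median 111), with 4 KO tumors above the highest WT tumor and KO6 near the lowest WT tumor. Its log2 fold change was 0.31 (SE 0.14, 95% confidence interval -0.01 to 0.64, limma adjusted p = 0.11).

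*Tcf7* was the factor whose mean was lower in KO tumors. It read 175, 148, 146, 159 and 166 normalized counts in WT2 to WT6, and 155, 127, 165, 165 and 106 in KO1, KO2, KO3, KO5 and KO6. KO2 and KO6 lay below every WT tumor, and the other KO tumors among them. The log2 fold change of -0.16 (SE 0.14, 95% confidence interval -0.46 to 0.14) did not pass the test (limma adjusted p = 0.37, exact permutation p = 0.30). With median scaling *Tcf7* passed as lower, at a log2 fold change of -0.43 (limma adjusted p = 0.012), and with quantile normalization at -0.44 (adjusted p = 0.0089).

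The calls moved with single tumors and settings. KO6 had the lowest KO value of *Gata3*, *Rora*, *Runx3*, *Stat4* and *Tcf7*. Without it *Eomes*, *Gata3*, *Rora* and *Stat4* passed too, so that 7 of the 8 factors were higher. In that setting 268 of the 770 probes were higher and 66 lower, where 241 and 75 were with all tumors. Without WT5, which had the highest WT value of *Tbx21*, *Eomes* and *Gata3*, 5 factors passed, beside 233 higher and 64 lower probes. *Eomes*, close to the threshold, also passed without KO2 (limma adjusted p = 0.026), with scaling to the 10 most stable reference genes (0.048) and with probes limited to a mean of at least 20 (0.041), each giving 4 factors. The probes called higher in these settings were 241, 268 and 258, the last among fewer probes tested. *Tbx21*, *Runx3* and *Bcl6* passed with any one tumor left out. Scaling the tumors to the positive control probes in place of the reference genes left none of the factors past the threshold, with log2 fold changes of 0.77 for *Tbx21*, 0.64 for *Runx3* and 0.34 for *Bcl6* and limma adjusted p of 0.15, 0.23 and 0.60. That scaling also reduced the called probes from 316 to 95. The sum of all normalized counts was 512955 to 585366 in WT and 575773 to 741789 in KO tumors. The reference gene factors behind it were 0.917 to 1.32 in WT and 1.03 to 1.60 in KO tumors. Before multiplication by them the sums were 443375 to 578720 in WT and 382817 to 581682 in KO tumors. The part of the shift in normalized sums in the values of the 8 transcription factors was not tested.

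The factors were also set against the T cell receptor complex genes, 3 of which were higher in KO tumors, 0 lower and 3 not called. The median log2 value of the 6 T cell receptor complex genes was 6.65 ± 0.53 in KO and 5.96 ± 0.17 in WT tumors, a difference of 0.69 (exact permutation p = 0.024). The middle values, which set this median, were those of *Cd3e* and *Cd247* in every tumor but WT4, where they were those of *Cd3e* and *Cd5*. Within that list *Cd3g*, *Cd3e* and *Cd3d*, chains of the receptor's CD3 complex, rose by 0.93, 0.80 and 0.71 on the log2 scale (limma adjusted p = 0.0014, 0.025 and 0.0099), while the coreceptor-like surface proteins *Cd5* and *Cd6* stood at -0.02 and -0.23 and were not called. The zeta chain *Cd247* stood at 0.63 and was not called. The CD8 chains *Cd8a* and *Cd8b1* rose by 1.13 and 1.76 on the log2 scale (limma adjusted p = 0.0023 and 0.0022), whereas *Cd4* stood at -0.29 (adjusted p = 0.19).

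On this scale, in which the median of the T cell receptor complex genes is subtracted in each tumor, *Tcf7* was lower in KO tumors and none of the other 7 factors passed. Relative *Tcf7* was 1.35, 1.10, 1.39, 1.33 and 1.62 (log2 units above the T cell median) in WT2 to WT6, and 0.25, 0.41, 1.08, 0.07 and 0.73 in KO1, KO2, KO3, KO5 and KO6. Every KO tumor lay below every WT tumor, although KO3 lay only just below WT3. The difference was -0.85 (SE 0.26, 95% confidence interval -1.40 to -0.30, limma adjusted p = 0.025, exact permutation p = 0.00794). On the same scale 20.3% of all probes were lower and 4.29% higher in KO tumors. The call of *Tcf7* was lost, at adjusted p of 0.051 to 0.071, when WT4, WT5, WT6, KO1, KO2 or KO5 was left out, with differences of -0.99 to -0.74 over all 10 omissions. Set against 8 leukocyte genes (among them *Ptprc*, which encodes CD45) in place of T cell genes, the *Tcf7* difference was -0.85 (limma adjusted p = 0.0012), without overlap. The median of these genes was also 0.69 higher in KO tumors, so the same difference followed from the subtraction. The share of all probes called on that scale is not given here.

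*Tbx21* and *Runx3* stood at 0.24 and 0.11 relative to the T cell receptor complex genes (limma adjusted p = 0.48 and 0.80). Their 95% confidence intervals, -0.28 to 0.77 and -0.49 to 0.71, leave room for a change in either direction. *Bcl6* and *Gata3* stood at -0.19 and -0.16. Their sign turned (to 0.026 and 0.052) when the mean of the 6 genes was subtracted in place of the median. With that mean *Tbx21* and *Runx3* stood at 0.46 and 0.33 (limma adjusted p = 0.087 and 0.32). With the median *Eomes*, *Rora* and *Stat4* stood at -0.27, -0.37 and -0.36 (adjusted p = 0.47, 0.28 and 0.28), and with the mean at -0.05, -0.16 and -0.15. *Foxp3*, the regulatory T cell factor, was lower relative to the median by a wider margin than any of the 8, at -1.60 (SE 0.28, limma adjusted p = 6.1e-04).

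**Figure D2:**
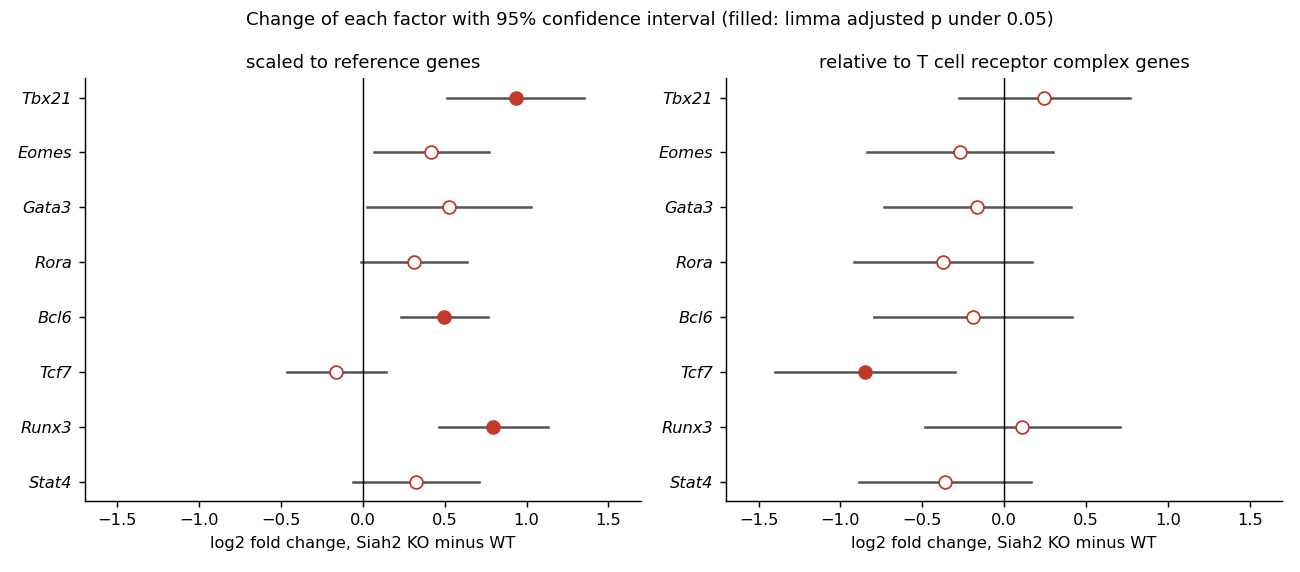
Log2 fold change (Siah2 KO minus WT) of each factor with its 95% confidence interval, scaled to the reference genes (left) and relative to the median of the T cell receptor complex genes (right), filled where the limma adjusted p is under 0.05. *Tbx21*, *Bcl6* and *Runx3* are filled on the left, and on the right only *Tcf7*, at -0.85.

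Apart from the pseudocount, differences between factors within a tumor do not depend on how that tumor was scaled. *Tbx21* was set against *Gata3*, *Eomes*, *Tcf7*, *Rora* and *Foxp3* in each tumor, by two-sided exact permutation tests adjusted over the 5 pairs. Probes differ in efficiency, so only the shift between groups is read and not the level of a difference. The log2 fold change of *Tbx21* was 0.93, where the median of all probes was 0.24. *Gata3*, *Eomes* and *Rora* (0.52, 0.42 and 0.31) lay above that median, and *Tcf7* and *Foxp3* (-0.16 and -0.92) below it. *Tbx21* thus gained less on the former than on a probe at the median. Whether its gains are particular to these pairs was not tested. *Tbx21* gained on *Tcf7* by 1.09 log2 units (adjusted permutation p = 0.020), from -2.87 ± 0.26 in WT to -1.77 ± 0.39 in KO tumors. The differences were -3.10, -2.84, -2.77, -2.50 and -3.12 in WT2 to WT6, and -1.62, -1.67, -2.47, -1.51 and -1.59 in KO1, KO2, KO3, KO5 and KO6. KO3 lay barely above WT5, and the other 4 KO tumors lay well clear of the WT range.

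*Tbx21* also gained on *Foxp3*, by 1.85 (adjusted permutation p = 0.020), with 0.51 ± 0.27 in KO and -1.34 ± 0.42 in WT tumors and no overlap. Its gain on *Rora* was 0.62 (adjusted permutation p = 0.040) and on *Eomes* 0.51 (adjusted permutation p = 0.0496), each with 4 of 5 KO tumors above the WT range and KO3 within it. Both calls were lost with a pseudocount of 10. That against *Eomes* was also lost when any tumor but KO3 was left out, and that against *Rora* when any tumor but WT5, KO2 or KO3 was left out. The shift against *Gata3* was 0.41 (adjusted permutation p = 0.11), and 3 of 5 KO tumors lay above the WT range. Without KO3 it was 0.54 and passed (adjusted permutation p = 0.032).

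**Figure D3:**
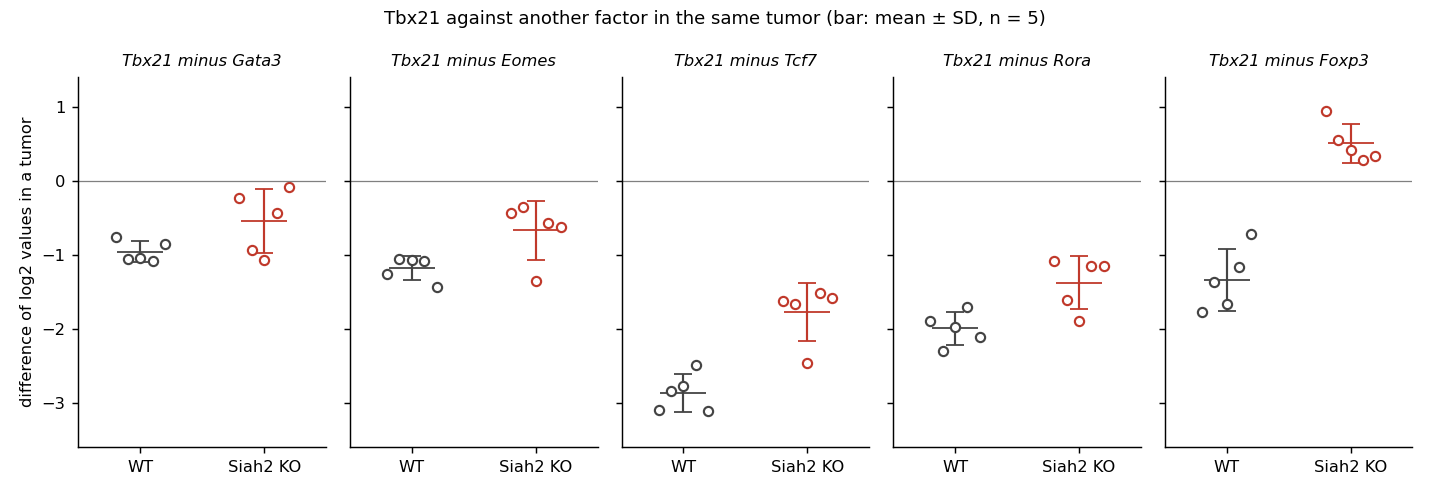
Difference of log2(value + 1) between *Tbx21* and 5 other factors within each tumor, WT grey and Siah2 KO red, with the mean and SD of 5 tumors. The groups are separate for *Tcf7* and *Foxp3*, and KO3 is the lowest KO tumor in the panels of *Gata3*, *Eomes*, *Tcf7* and *Rora*.

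Genes upstream and downstream of the Th1 factors were on the panel as well. Of 14 measured genes of the IL-12, IL-18 and interferon gamma signals, 7 were higher, 1 lower and 6 not called, with a median log2 fold change of 0.58. The IL-12 receptor chain *Il12rb2*, itself a T-bet and STAT4 target, read 72.4 ± 20.9 in KO and 14.0 ± 7.64 normalized counts in WT tumors (log2 fold change 2.44, limma adjusted p = 0.0012). *Ifng* rose from 11.6 ± 3.69 to 49.1 ± 21.7 (1.92, adjusted p = 0.0015), and the second receptor chain *Il12rb1* and the IL-18 receptor chain *Il18r1* rose by 1.54 and 0.99. The WT means of *Il12rb2* and *Ifng* were below 20 normalized counts and near the highest negative control probe of 10.7. The size of these 2 fold changes is thus uncertain. *Irf1* of the interferon gamma response rose by 0.91. The gene that fell was *Il12b*, a subunit of IL-12, at -0.86.

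Of the 13 genes of the Th1 and cytotoxic program, which shares *Il12rb2*, *Ifng* and *Il18rap* with the list above, 11 were higher, 1 lower and 1 not called, with a median log2 fold change of 1.34. The chemokines *Ccl4* and *Ccl3* rose by 2.20 and 2.02, *Gzmb*, a granzyme of cytotoxic lymphocytes, by 1.85, and the Th1 chemokine receptor *Cxcr3* by 1.07, from 207 ± 51.3 to 426 ± 41.9 normalized counts (limma adjusted p = 0.0012). The chemokine *Xcl1* fell by 0.83 on the log2 scale.

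The Th2 and Th17 programs around *Gata3* and *Rora* were mostly near the detection floor. Of the 10 Th2 genes 7 had means below 20 normalized counts, and 1 was higher, 2 lower and 7 not called (median -0.08). *Il1rl1*, the IL-33 receptor that is also made by mast cells and innate lymphoid cells, rose from 573 ± 105 to 1706 ± 597 normalized counts (log2 fold change 1.52, limma adjusted p = 0.0011), and the chemokine receptors *Ccr3* and *Ccr4*, named here after their values were seen, fell from 19.2 and 9.81 to 2.33 and 2.77. *Il4* read 3.03 ± 2.35 in KO and 5.89 ± 3.83 in WT tumors. Of the 10 Th17 genes 7 were likewise below 20, with 1 higher (*Stat3*, 0.31), 1 lower (the IL-1 receptor *Il1r1*, -0.67) and 8 not called (median 0.17). *Il17a* read 1.47 in KO and 1.32 in WT tumors, so that a difference in this gene was not detectable at this depth.

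Around *Bcl6*, 3 of 8 follicular helper genes were higher, 0 lower and 5 not called (median 0.45). They were *Pdcd1*, which encodes PD-1, at 1.37, the costimulatory receptor *Icos* at 0.77 and the SLAM family receptor *Slamf6* at 0.59. *Cxcr5*, the homing receptor that marks follicular cells, was at the floor with 1.30 ± 0.24 in KO and 1.48 ± 0.56 normalized counts in WT tumors. Around *Tcf7*, 3 of 6 measured genes of the naive and memory program were higher, 0 lower and 3 not called (median 0.65). The IL-7 receptor *Il7r* rose by 1.97, whereas the lymph node homing receptor *Ccr7*, at -0.65, did not pass (limma adjusted p = 0.12). *Slamf6* belongs to this list as well.

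Of 19 other lymphocyte transcription factors measured, 3 were higher, 1 lower and 15 not called, with a median log2 fold change of 0.19. *Stat2* and *Stat3*, signal carriers of interferon and IL-6 family receptors, rose by 0.58 and 0.31, and *Foxp3* fell from 56.7 ± 15.8 to 29.5 ± 9.97 normalized counts (-0.92, limma adjusted p = 0.018). The lists were chosen by name and overlap, and their counts are descriptions beside the 31.3% of all probes called higher, a share that holds for the reference gene scaling.

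**Figure D4:**
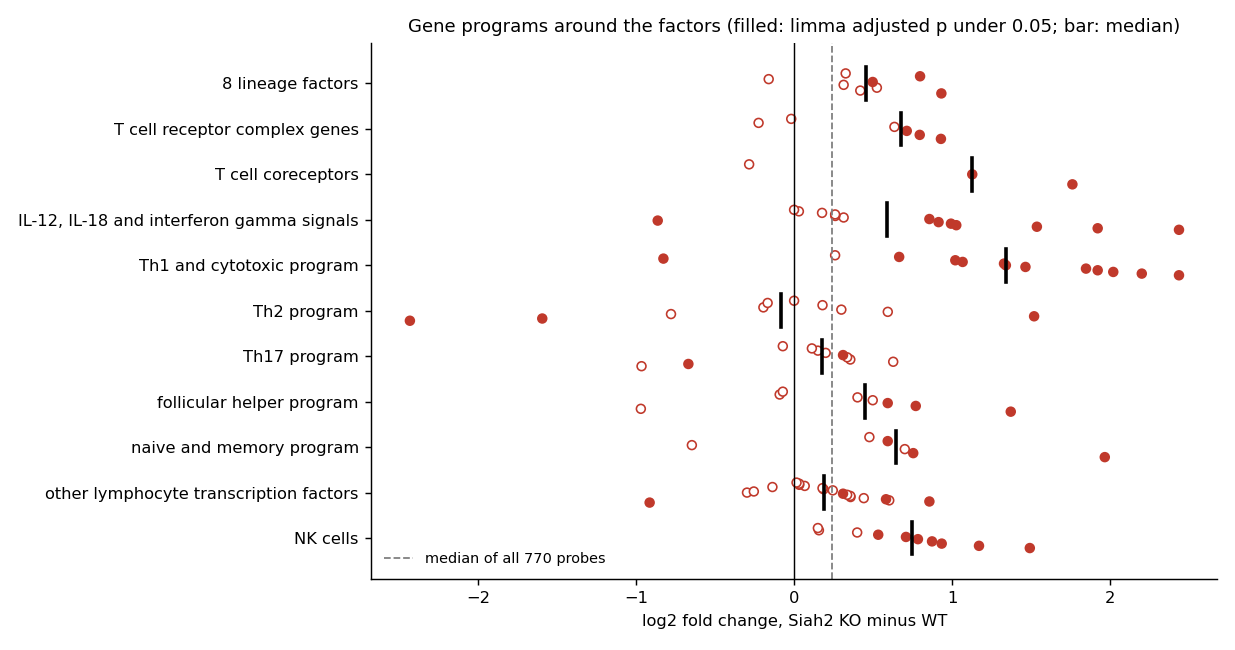
Log2 fold change (Siah2 KO minus WT) of each measured gene in the 8 factors and in 10 related lists, filled where the limma adjusted p is under 0.05, with a black bar at each list's median and a dashed line at the median of all probes (0.24). The Th1 and cytotoxic list has the highest median, 1.34, whereas the Th2 and Th17 lists straddle 0.

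Markers of other cells that express these factors also differed between groups. Of 10 NK cell markers 7 were higher in KO tumors, 0 lower and 3 not called (median 0.75), and their summed signal was 1963 to 2900 in KO and 1123 to 1469 normalized counts in WT tumors. *Klrc1*, *Klrb1c*, *Klrc2* and *Klrk1*, NK cell receptors that activated CD8+ T cells can also express, rose by 1.49, 1.17, 0.93 and 0.87. *Klra7*, *Klrd1* and *Ncr1*, named here to complete the called markers, rose by 0.78, 0.71 and 0.53. *Klra1* was at the floor in both groups. Of 8 B cell markers 1 was higher and 7 were not called, 7 had means below 20, and the summed signal was 72.1 to 131 in KO and 62.1 to 94.8 in WT tumors. *Ms4a1*, which encodes CD20, was near the floor in both groups. Among myeloid markers 3 of 7 of macrophages were higher and 2 lower (summed 6366 to 10290 in KO, 6410 to 7967 in WT), 1 of 3 of dendritic cells higher (123 to 180 and 86.2 to 140) and 1 of 3 of neutrophils higher (229 to 610 and 208 to 261). Of the 4 mast cell markers 1 was lower (119 to 187 and 132 to 415), of 7 of endothelium 1 was higher and 3 lower (2969 to 3810 and 3033 to 3492), and all 4 of fibroblasts were lower (10330 to 12330 and 16490 to 21340). The part of these cells in the values of the factors was not tested.

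The factors did not vary as a unit from tumor to tumor. After subtraction of the group means, the deviations of *Gata3* and *Rora* correlated at r = 0.87, those of *Tcf7* and *Stat4* at 0.85 and those of *Eomes* and *Tcf7* at 0.78, whereas the factors that rose were nearly unrelated (*Tbx21* and *Runx3* -0.15, *Tbx21* and *Bcl6* -0.12, *Bcl6* and *Runx3* 0.28). These are descriptions over 10 tumors that share 1 scaling factor each. Among 581 endogenous genes with a mean of at least 20, the genes most like *Tbx21* in their deviations were the CD3 chain *Cd3g* (r = 0.90), the T cell receptor kinase *Zap70* (0.83) and *Slamf6* (0.79). Those most like *Bcl6* were *Atg5* of the autophagy machinery (0.86), the integrin chain *Itgae* (0.85) and the cytokine *Osm* (0.84), and those most like *Runx3* were *Tnfrsf18*, which encodes GITR, the integrin chain *Itga6* (both 0.84) and *Il18rap* (0.82). The deviations of *Tbx21*, *Bcl6* and *Runx3* correlated with those of the summed signal of each tumor at 0.31, 0.31 and 0.21, whereas those of *Eomes*, *Tcf7*, *Rora*, *Gata3* and *Stat4*, which form the closely correlated pairs, did so at 0.83, 0.75, 0.69, 0.61 and 0.47. The part of the summed signal in those pairs was not tested.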

How the data were processed

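RNA of 5 WT and 5 Siah2 KO tumors was measured on 1 NanoString panel, and groups were taken from the sample labels. The authors deposited the signal of 784 probes as normalized counts, scaled to 20 reference genes after quality control per the methods. The values further behave as counts with a background constant subtracted and a floor before scaling. In each tumor all values above the floor and under 150 lay within 0.1 of a step of its factor, and before the factor the 770 gene probes summed to 382817 to 581682. Precision at low counts is thus limited by counting.

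From these, log2(value + 1) was fitted with limma 3.58.1 in R 4.3.3 (lmFit and eBayes, no covariates), after a test on simulated data. Exact permutation tests were two-sided. The labels do not say that each tumor came from its own mouse, and p-values measure the spread between these tumors. The 8 factors, the 19 lists and the rule for naming genes (the factors, up to 4 called genes per list with a mean of at least 20, the defining genes of each program, and 3 similar genes per called factor) were chosen with earlier results of these data known. Of 158 listed genes 132 were measured, 1 through an older symbol. The alternatives were 4 scalings, a minimum mean of 20, a floor of 20, 10 as the pseudocount, no reference genes, the methods' t-test, an intensity trend, the replicate number as a block or the same tumors without it, and leaving out each tumor. Replicate numbers were not taken as pairs. Figures were drawn in Python 3.11.15 (matplotlib 3.10.9). Some listed genes are counted but not reported by name here. Other experiments of the study were not analysed here.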

Additional observations from a re-analysis of the deposited data

Results flagged for a closer look

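In WT tumors *Tbx21* was set apart in WT5, at 27.4 normalized counts, where the next highest WT tumor read 20.5. The gap was 0.748 of the range of the 5 tumors, above Dixon's 95% critical value. Before multiplication by its reference gene factor WT5 stood at 21 counts above background, within the 19 to 22 of the 5 WT tumors. Of the 16 groups of values examined (8 factors in WT and KO tumors) this was the single one past that limit.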

How the results depend on the processing

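Except where values were set against T cell receptor complex or leukocyte genes, *Tbx21*, *Runx3* and *Bcl6* kept their direction under every alternative run. The number of factors called was 3 to 7 with each tumor left out (7 without KO6, 5 without WT5). The probes called were then 268 to 334 (334 without KO6, 297 without WT5). With positive control scaling 0 factors were called, and 95 probes (60 higher, 35 lower) in place of 316. With median scaling 163 probes were higher and 152 lower, with quantile normalization 153 and 181, and these scalings moved the median of all probes by -0.25 and -0.28. Positive control scaling moved it by -0.16. Under quantile normalization *Rora* turned to -0.059. Relative to T cell receptor complex genes the number of factors called was 0 to 1 with each tumor left out, *Bcl6* and *Gata3* turned to 0.026 and 0.052 with the mean in place of the median, and *Runx3* was -0.058 without KO3 and up to 0.31 with another tumor left out. The methods' t-test called 4 factors and 379 probes without adjustment, and 3 factors and 314 probes after Benjamini-Hochberg adjustment. The cause of the shifts between scalings was not tested.

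Replicate numbers were shared by 8 tumors. The correlations of same-numbered tumors' deviations were 0.05, 0.14, 0.18 and 0.49. KO5 and KO6 correlated best with the WT tumor of their own number, whereas KO2 and KO3 correlated best with WT4. The labels do not say whether the numbers pair tumors, and they were not taken as pairs. With the replicate block 3 factors and 235 probes were called, and without it in those 8 tumors 3 and 232. Relative to T cell receptor complex genes 0 were called either way, with *Tcf7* at -0.78 (limma adjusted p = 0.15 with the block and 0.12 without) and *Bcl6* turned to 0.047. In the same 8 tumors, with or without the block, the shift of *Tbx21* was 0.48 against *Eomes*, 1.08 against *Tcf7*, 0.55 against *Rora* and 1.66 against *Foxp3*, none past the threshold. An exact test over 4 pairs cannot go below 0.125.

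Against *Eomes* the shift of *Tbx21* was 0.48 with values under 20 raised to 20, 0.36 with a pseudocount of 10, and 0.435 to 0.685 with each tumor left out. Against *Rora* it was 0.43 with that pseudocount and 0.54 to 0.75 with each tumor left out, and against *Gata3* 0.29 to 0.54.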
